A study of Homo sapiens with 267 samples.

Results

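Of the 63677 genes in the count table, 9 genes of HLA class I antigen presentation were followed through the K562 libraries of the series. They were taken by symbol: the class I heavy chains HLA-B, HLA-C and HLA-E, the light chain B2M, the peptide transporter subunits TAP1 and TAP2, the loading factor TAPBP, the regulator NLRC5 and the class II invariant chain CD74. Taking them by symbol used no measured value, but the genes were chosen with earlier results of these data known. All 9 had a row in the table.

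K562 (ATCC CCL-243) is 1 human line of chronic myelogenous leukaemia, and its cells were captured on the Fluidigm C1 system, which turns the RNA of single cells into cDNA in separate chambers. Counts were matched to 263 of the 267 labelled libraries, which fall into 3 runs. The study compared fresh cells with cells fixed in the cross-linker DSP, but the labels used here do not say which library was fresh, fixed, a bulk sample or an empty site. All these kinds therefore lie together in each group, and each library is 1 cell or 1 bulk of a single culture, not a replicate of a condition.

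The Hoechst run held 96 untreated libraries, stained with Hoechst and propidium iodide, from cells whose passage label read 90 to 92. The benzene run had 36 untreated libraries stained with CellTracker Green and 35 stained with CellTracker Orange, the latter from cells given 10 mM benzene for 3 h. In the imatinib run 51 untreated libraries carried CellTracker Green and 45 carried CellTracker Orange with 1 µM imatinib for 1 h. Imatinib inhibits the BCR-ABL kinase that K562 cells depend on. The passage label of both CellTracker runs read 20 to 22, and the labels give all passage numbers in hours. Within a run every drug-treated library was Orange and every untreated library Green, so drug and stain cannot be told apart. The Hoechst run, with the higher passage label, was sequenced as 100-base read pairs and the CellTracker runs as 75-base pairs. By the study's account it also used another lot of K562 and kept dead cells, which the other runs left out. Its fixed cells were stored for longer, and it was sequenced on another instrument model. Stain, passage label, lot, dead cells, storage time, instrument and read length therefore cannot be told apart between these runs.

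Reads on genes ran from 50358 to 2043351 per library. Low-complexity libraries, those in which the 500 most abundant genes took over 70% of the reads, were set aside, leaving 242: 82 of the Hoechst run, 31 Green and 34 Orange of the benzene run, and 50 Green and 45 Orange of the imatinib run. The median number of genes with more than 2 reads was 7410.5, 5905 and 8022 in the Hoechst, benzene and imatinib runs, and the median mitochondrial share of reads was 12.5%, 6.49% and 6.68%. The erythroid factor GATA1 was detected in 92.3% to 100% of libraries by run and the tumour antigen PRAME in 100%. Both belong to a list of 9 K562 markers, not all of which were seen so widely. Over the 242 kept libraries EPOR was detected in 36.8% and LMO2 in 48.8%, the others in 83.5% (HBZ) to 100% (PRAME). Of the T cell markers, CD8A had 0 reads and CD3E at most 4 reads in a run, but CD3D was detected in 82.9%, 41.5% and 27.4% of the Hoechst, benzene and imatinib libraries. The summed level of the 4 T cell markers was 130, 41.5 and 9.38 CPM (counts per 1000000 reads on genes) in these runs. Of the other markers that K562 was not chosen for, LYZ was detected in 58.5% to 81.1% and EPCAM in 78.5% to 86.3% of libraries, and the part of any of these markers in the values below was not tested.

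Class I molecules present peptides from inside the cell to cytotoxic T cells and natural killer cells. A heavy chain pairs with beta-2-microglobulin, the B2M product, while TAP1 and TAP2 form the channel that carries peptides into the endoplasmic reticulum and tapasin, the TAPBP product, holds the empty molecule at that channel. NLRC5 drives transcription of most of these genes together with RFX, CREB and NF-Y factors, interferons raise them through STAT and IRF factors, and K562 is known as a target of natural killer cells because it shows little class I on its surface.

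The windows of 250 bases before the transcription start are printed for a pair of genes seen in few libraries, HLA-B and HLA-C, and a pair seen in nearly all, B2M and TAPBP. They come from the RefSeq promoter table of GRCh38.p14 and were placed on GRCh37 by an exact match, each at 1 site. The capitals mark CCAAT (the CCAAT box), TGACG (the core of the cyclic AMP response element), GAAANNGAAA (a core of the interferon-stimulated response element) and GGGNNTNNCC (a kappaB-like site), searched on both strands, so that a match to the other strand reads as its complement and overlapping matches run together.
HLA-B: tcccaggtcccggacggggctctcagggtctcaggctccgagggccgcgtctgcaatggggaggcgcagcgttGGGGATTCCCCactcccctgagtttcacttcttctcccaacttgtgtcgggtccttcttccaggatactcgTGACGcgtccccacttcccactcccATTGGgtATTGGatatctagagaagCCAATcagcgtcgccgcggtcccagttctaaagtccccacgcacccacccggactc
HLA-C: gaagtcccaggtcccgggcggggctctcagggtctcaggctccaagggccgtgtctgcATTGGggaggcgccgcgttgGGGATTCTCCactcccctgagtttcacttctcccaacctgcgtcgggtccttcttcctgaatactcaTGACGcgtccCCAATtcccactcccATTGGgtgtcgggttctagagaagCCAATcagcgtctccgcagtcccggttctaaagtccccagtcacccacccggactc
B2M: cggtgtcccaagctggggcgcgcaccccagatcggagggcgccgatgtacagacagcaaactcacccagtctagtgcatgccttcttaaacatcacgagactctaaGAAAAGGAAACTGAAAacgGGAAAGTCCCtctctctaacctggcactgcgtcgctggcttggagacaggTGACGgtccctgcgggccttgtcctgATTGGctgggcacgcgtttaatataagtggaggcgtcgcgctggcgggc
TAPBP: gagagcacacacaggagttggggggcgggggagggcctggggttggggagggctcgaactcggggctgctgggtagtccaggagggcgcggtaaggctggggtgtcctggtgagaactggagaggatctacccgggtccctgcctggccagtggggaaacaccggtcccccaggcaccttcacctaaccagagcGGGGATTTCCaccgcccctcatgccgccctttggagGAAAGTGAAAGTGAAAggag

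On GRCh37 these windows lie at chr6:31324957-31325206 for HLA-B, chr6:31239870-31240119 for HLA-C and chr6:33281856-33282105 for TAPBP, all on the minus strand, and at chr15:45003465-45003714 on the plus strand for B2M. HLA-B and HLA-C, seen in few libraries, and B2M, seen in all, each held a TGACG match, a CCAAT match and a kappaB-like match. TAPBP held a kappaB-like match only among these 3 motifs. The interferon response core lay in the windows of B2M and TAPBP, each with 2 overlapping matches, and in neither the HLA-B nor the HLA-C window, while the looser form AANNGAAA, which overlaps the core and is not capitalised, was found once in both HLA-B and HLA-C. Over all 35116 promoter windows of that length, 32.01% held CCAAT, 21.2% TGACG, 3.02% the core, 20.3% the looser form and 19.7% the kappaB-like letters. The core also lay in a TAP1 window, with 2 matches, and in the TAP2 window, with 1, which are not printed. TAP1 and TAP2 were detected in 20 and 69 of the 242 kept libraries. CD74, detected in 7, had 0 core matches. A match says only that the letters are there.

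Taking detection as more than 2 reads in a library, 8 of the 9 genes fell in the same class of detection in every run. B2M and TAPBP were detected in at least 90% of libraries of each run, HLA-E and TAP2 in between, and HLA-B, HLA-C, NLRC5 and CD74 in under 10%. In the Hoechst, benzene and imatinib runs 44.4%, 55.6% and 55.6% of the 9 genes were under 10%. Of all genes with a read in the run, 60.1%, 53.9% and 55.6% were under 10% and 7.96%, 6.58% and 11.4% at 90% or more. How many of all genes kept their class in every run was not counted. TAP1 lay in between in the Hoechst run, at 14.6%, and under 10% in both CellTracker runs, but in the Hoechst run it was also under 10% after thinning to 500000 reads (8.75% of 80 libraries) and at a limit of 10 reads (7.32% of 82). The median share of libraries over the 9 genes was 14.6%, 6.15% and 8.42% in the Hoechst, benzene and imatinib runs, beside 3.66%, 7.69% and 6.32% over all genes with a read in the run. Per library 1 to 7 of the 9 genes were detected, with a median of 3 in each of the 5 groups.

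**Figure D1:**
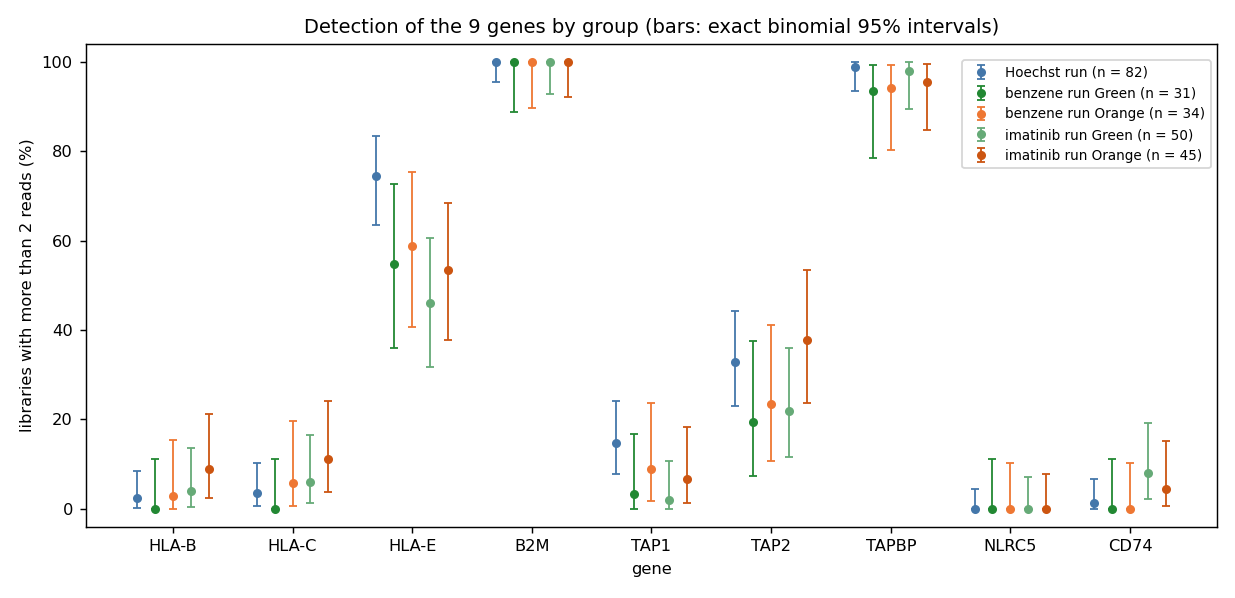
The vertical axis gives the percentage of libraries with more than 2 reads of each gene, the colours the 5 groups with their numbers of libraries, and the bars exact binomial 95% intervals. B2M was at 100% in every group and TAPBP between 93.5% and 98.8%, while NLRC5 was at 0% throughout and the intervals of the groups overlapped within each gene except for HLA-E between the Hoechst run and the Green libraries of the imatinib run. How many of all genes lack such overlap was not counted, and libraries of a group are not replicates.

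Per kilobase of annotated exon, the summed CPM ran from 114 to 199 over the 5 groups for B2M, from 34.5 to 37.2 for TAPBP and from 7.66 to 21.2 for HLA-E, ranges that do not overlap. TAP2 lay lower, from 0.459 to 1.34. The ranges of TAP1 (0.0134 to 1.35), HLA-C (0.00944 to 2.05) and HLA-B (0.00512 to 0.882) overlapped that of TAP2 and one another, so no order was set among these 4 genes. CD74 reached 0.259 and NLRC5 0.00351 at most. Intervals on sums and shares here cover counting error only, since reads carry no molecular identifiers.

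HLA-B (chr6:31321649-31334844, minus strand, protein coding) encodes a classical heavy chain, one of the chains that show peptides to CD8+ T cells. It was detected in 2 of 82 Hoechst libraries (2.44%, exact binomial 95% interval 0.297 to 8.53%), 0 of 31 and 1 of 34 Green and Orange libraries of the benzene run, and 2 of 50 and 4 of 45 Green and Orange libraries of the imatinib run. The library median was 0 CPM in every group, and the highest library had 6.62, 0.859, 3.25, 207 and 14.8 CPM in that order of groups. Few libraries thus held nearly all reads of the gene. Of its 333 reads over the kept libraries, 246 lay in library 75 of the imatinib run, a Green library with 6571 detected genes, 251 reads of HLA-E, 377 of B2M and 0 of HLA-C. Without that library the summed HLA-B level of the Green imatinib group went from 4.08 to 0.178 CPM.

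HLA-C (chr6:31236526-31239907, minus strand, protein coding), the other classical heavy chain of the set and also a ligand of killer cell receptors, was detected in 3 of 82 Hoechst libraries (3.66%, interval 0.761 to 10.3%), 0 of 31 and 2 of 34 in the benzene run and 3 of 50 and 5 of 45 in the imatinib run. Its median was again 0 CPM in all groups, with highest libraries of 6.64, 0.668, 20.2, 63.03 and 84.7 CPM. The highest libraries all came from the imatinib run: Orange libraries 71, 42, 56 and 11 had 103, 74, 55 and 51 reads and Green library 70 had 77, of 444 in all.

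HLA-B and HLA-C were often found in the same libraries. Of the 9 libraries with HLA-B detected, 8 also had HLA-C, and the exception was library 75 of the imatinib run. In the 5 imatinib libraries with the most HLA-C, HLA-B had 18, 6, 12, 10 and 8 reads, fewer than HLA-C in each. Library 59 of the Hoechst run had 8 reads of HLA-B and 5 of HLA-C, library 71 of that run 7 and 3, and Orange library 6 of the benzene run 4 and 5. Spearman's rho between the log2(CPM + 1) of both genes was 0.31 over 82 Hoechst libraries, 0.57 over 65 benzene libraries and 0.59 over 95 imatinib libraries. These are descriptions over libraries that share a culture, and libraries at 0 make up most of the points.

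**Figure D2:**
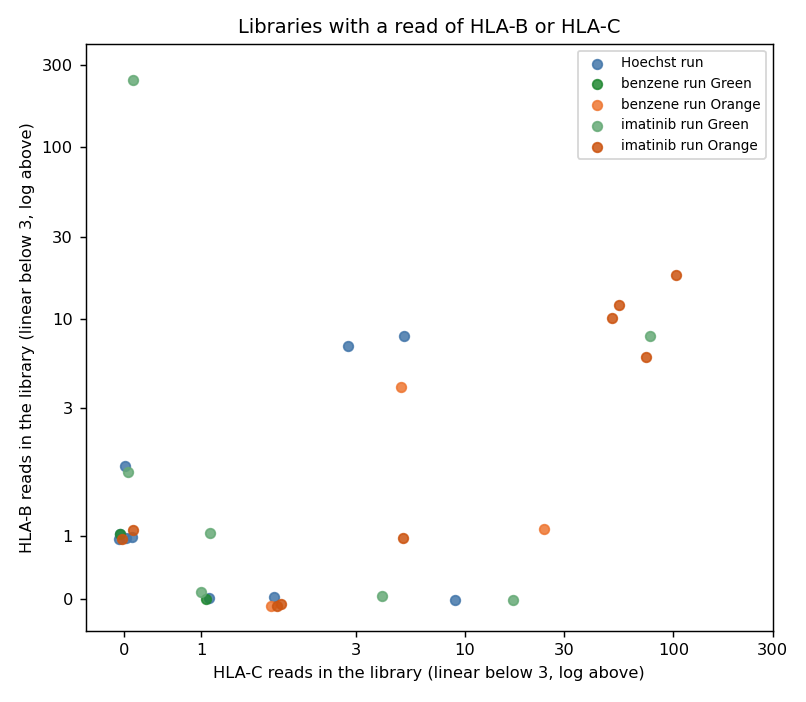
Each point is a library with at least 1 read of HLA-B or HLA-C, with HLA-C reads on the horizontal and HLA-B reads on the vertical axis, both linear below 3 and logarithmic above and slightly jittered. Orange libraries 71, 42, 56 and 11 and Green library 70 of the imatinib run form the group with 51 to 103 HLA-C reads, and Green library 75 of that run stands alone with 246 HLA-B reads and 0 of HLA-C.

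The reference transcripts of HLA-B and HLA-C shared no exact stretch as long as a read. Of the 75-base windows along the canonical transcripts, 0.0% were common to HLA-B and HLA-C (also 0.0% at 100 bases), and 1.98% of the HLA-C windows also occurred in another gene. For HLA-B 14.98% occurred in an overlapping gene on the other strand, ENSG00000271581, which had 0 reads in the kept libraries. Only uniquely mapped reads were counted, on 1 reference allele per gene, and whether strand was used in counting is not given in the sources used here. Whether reads of the K562 alleles failed to map, were set aside as ambiguous or were assigned with mismatches to the other gene was not tested.

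HLA-E (chr6:30457286-30461971, plus strand, protein coding) is a non-classical heavy chain that mainly presents leader peptides of other class I chains and is read by the NKG2A receptor of natural killer cells. In contrast to the classical chains, it was detected in 61 of 82 Hoechst libraries (74.4%, interval 63.6 to 83.4%), 17 of 31 and 20 of 34 Green and Orange benzene libraries and 23 of 50 and 24 of 45 Green and Orange imatinib libraries. Every group started at 0 CPM, and the medians were 25.1, 2.30, 3.67, 1.11 and 5.996 CPM with highest libraries of 926, 156, 886, 236 and 350 CPM. The Hoechst libraries had the highest median, yet the groups overlapped over almost their whole range. The SD of log2(CPM + 1) within a group was between 2.48 and 2.87, the widest of the 9 genes in 4 of the 5 groups.

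Single libraries weighed on the HLA-E sums. Library 38 of the Orange benzene group held 42.4% of that group's HLA-E reads, and without it the sum went from 59.03 to 34.97 CPM. In the Hoechst run library 7 held 23.3% of the reads and the sum went from 61.8 to 48.1 CPM without it. Of the HLA-E windows of 75 bases 2.30% occurred in another gene, mostly HLA-G, which had at most 2 reads in any run.

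B2M (chr15:45003556-45011049, plus strand, protein coding) was detected in all 242 kept libraries, the only one of the 9 genes for which this held. The lowest, median and highest library had 28.7, 297 and 1221 CPM in the Hoechst run. The same values were 128, 538 and 1474 CPM in the Green and 30.7, 634 and 1386 CPM in the Orange libraries of the benzene run, and 53.99, 321 and 1050 CPM in the Green and 134, 398 and 919 CPM in the Orange libraries of the imatinib run. The benzene run had the higher medians and all groups overlapped. No single library held over 9.06% of a group's B2M reads, and no B2M window was found in another gene.

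Light chain transcripts were thus present without detected HLA-B, HLA-C or HLA-E in many libraries. With B2M at more than 2 reads, none of HLA-B, HLA-C and HLA-E was detected in 21 of 82 Hoechst libraries (25.6%), 28 of 65 benzene libraries (43.1%) and 45 of 95 imatinib libraries (47.4%). These counts depend on the limit: at least 1 read of HLA-E lay in 67, 46 and 66 libraries of these runs. HLA-E and B2M were detected together in 61, 37 and 47 libraries of these runs, whereas HLA-B or HLA-C was detected in 3, 2 and 9. Within runs the level of HLA-E went with that of B2M at a rho of 0.32, -0.17 and 0.08 over 82, 65 and 95 libraries, so no common direction was seen.

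**Figure D3:**
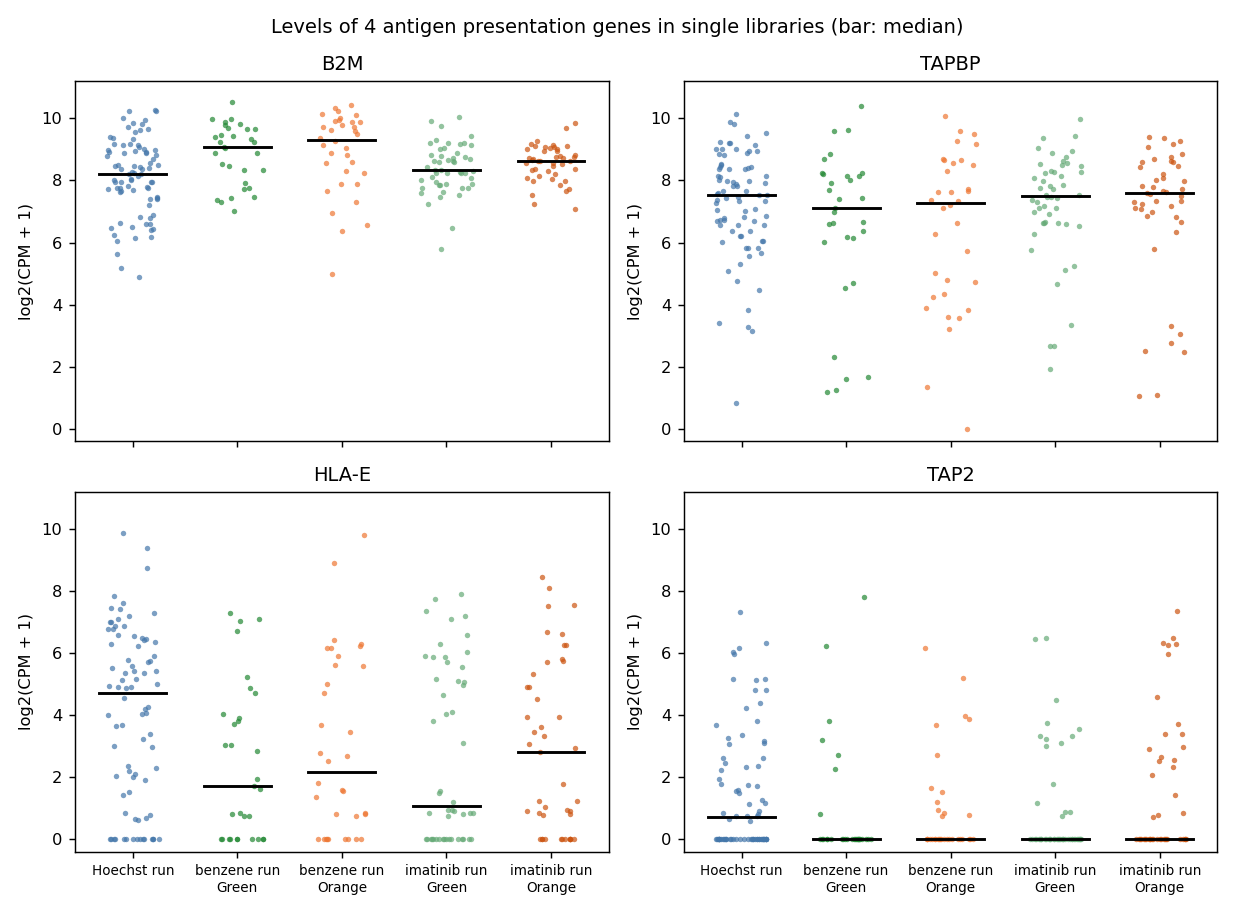
Each point is a library, placed by group, with its level as log2(CPM + 1) on the vertical axis, and the bars are group medians. B2M was above 0 in every library, TAPBP in all but 1, while HLA-E spread from 0 to nearly 10 in the Hoechst run and the TAP2 median was 0 in all groups but the Hoechst run.

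TAP1 (chr6:32812986-32821593, minus strand, protein coding), which makes 1 chain of the peptide channel, was detected in 12 of 82 Hoechst libraries (14.6%, interval 7.80 to 24.2%), 1 of 31 and 3 of 34 in the benzene run and 1 of 50 and 3 of 45 in the imatinib run, in the order Green and Orange. The median library was at 0 CPM in all 5 groups. The highest libraries had 270, 6.71, 13.7, 1.90 and 20.0 CPM. In the Hoechst run libraries 52 and 38 held 315 and 211 of the 666 TAP1 reads, so that 2 libraries made most of the run's sum.

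TAP2 (chr6:32789610-32806516, minus strand, protein coding), which makes the partner chain, was seen more often than TAP1, in 27 of 82 Hoechst libraries (32.9%, interval 22.9 to 44.2%), 6 of 31 and 8 of 34 benzene libraries and 11 of 50 and 17 of 45 imatinib libraries. The median was 0.634 CPM in the Hoechst run and 0 in the other 4 groups, with highest libraries of 159, 222, 71.05, 88.1 and 161 CPM. Library 3 of the Green benzene group held 60.6% of its TAP2 reads, and the sum there went from 9.01 to 3.64 CPM without it. Both chains, which the channel needs, were detected together in 4 of 82, 1 of 65 and 3 of 95 libraries of the Hoechst, benzene and imatinib runs, where TAP1 was detected in 12, 4 and 4 and at least 1 of the pair in 35, 17 and 29. Without the libraries of over 10000 detected genes, both were detected in 2 of 77, 0 of 62 and 0 of 91.

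Annotated genes overlap both transporter genes. Of the 75-base windows of TAP1, 19.6% occurred in another gene, nearly all in PSMB8-AS1 on the other strand, which had 0 reads. Of the TAP2 windows 34.997% occurred in ENSG00000250264, on the same strand, which had 13 reads in all. A read that lies in the exons of both genes is by default assigned to neither, and the part of such reads in the TAP2 level was not tested.

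TAPBP (chr6:33267471-33282061, minus strand, protein coding) was detected in 81 of 82 Hoechst libraries (98.8%, interval 93.4 to 99.97%), 29 of 31 and 32 of 34 benzene libraries and 49 of 50 and 43 of 45 imatinib libraries. The lowest, median and highest library had 0.794, 184 and 1123 CPM in the Hoechst run, 1.29, 136 and 1333 CPM in the Green and 0, 153 and 1069 CPM in the Orange benzene libraries, and 2.77, 180 and 1013 CPM in the Green and 1.06, 191 and 680 CPM in the Orange imatinib libraries. Its sums lay within a narrow range of 229 to 247 CPM over the 5 groups, although single libraries spread with an SD of 1.69 to 2.55 on the log2(CPM + 1) scale. Its transcript overlaps ENSG00000289100 on the other strand in the later annotation, but that gene has no row in the count table.

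NLRC5 (chr16:57023397-57117443, plus strand, protein coding), the transactivator of class I genes, was the gene seen least. No kept library had more than 2 reads, and 6 reads lay in 4 libraries: 2 in the Hoechst run, 2 in Orange library 94 of the benzene run and 2 in Orange library 96 of the imatinib run. For the Hoechst run, 0 of 82 libraries allows a share of up to 3.66% at 3 libraries, and the sum of 0.0192 CPM is under the floor of 0.0288 CPM that 3 reads would give. At this depth NLRC5 transcripts were not detectable in single libraries, which does not show that they are absent.

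CD74 (chr5:149781200-149792532, minus strand, protein coding), the invariant chain that guards the class II groove and also takes part in cross-presentation, was detected in 1 of 82 Hoechst libraries, none of the 65 benzene libraries and 4 of 50 Green and 2 of 45 Orange imatinib libraries. Medians were 0 CPM throughout. Its 99 reads lay mostly in Green libraries 92, 59 and 43 of the imatinib run, with 30, 23 and 15 reads, and Orange library 9, with 12. In the benzene run 0 reads were found among 88302244, which allows up to 0.0340 CPM at 3 reads. Only Orange library 42 of the imatinib run had both CD74 and HLA-B or HLA-C detected.

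Whether Orange libraries differ from Green ones in both CellTracker runs was asked with reads summed per run and stain. HLA-E sums were 22.4 and 59.03 CPM in Green and Orange of the benzene run and 33.9 and 38.5 CPM in the imatinib run, higher in Orange in 2 of 2 runs. HLA-C was higher in Orange in 2 of 2 runs, from 0.0237 to 0.674 and from 1.59 to 5.15 CPM, and TAP1 likewise, from 0.213 to 0.565 and from 0.0634 to 0.970 CPM. Single libraries carried much of these sums: without the top library of each group HLA-C went from 0 to 0.156 and from 0.372 to 3.41 CPM, and TAP1 from 0.0243 to 0.201 and from 0.0163 to 0.471 CPM. TAP2 and HLA-B pointed opposite ways in the 2 runs. With edgeR's quasi-likelihood test on the 4 sums and the run as a term, the log2 fold change of Orange over Green was 0.78 ± 0.46 (SE) for HLA-E, 2.95 ± 1.46 for HLA-C, 2.60 ± 1.57 for TAP1 and 0.11 ± 0.13 for B2M. It was 0.01 ± 0.17 for TAPBP, 0.16 ± 0.96 for TAP2, -0.43 ± 2.02 for HLA-B and -1.77 ± 1.918 for CD74.

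None of the 8 genes tested was called by edgeR, with an adjusted p of 1 (Benjamini-Hochberg) for each, and NLRC5 did not pass the filter on low counts. Over all genes edgeR called 0 of 17684 (0.0%), with 439 at an unadjusted p under 0.05, of which none was among the 8, so the count for these genes is the same as the background. DESeq2 called 119 of 13912 genes on the same sums, none of them among the 6 of these genes that it gave an adjusted p, which were all but TAP1 and CD74. The SE of HLA-B, HLA-C, TAP1 and CD74 exceeded 1 on the log2 scale. Since each run is 1 culture, these p-values measure only the spread between the 4 sums.

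Within a run there is 1 sum per stain and therefore no replicate check. With a pseudocount of 1 CPM, HLA-E differed by 2-fold or more between Orange and Green in the benzene run, the single gene among the 4 of the 9 with at least 1 CPM in either sum, at a log2 ratio of 1.36 (fold 2.64, exact counting interval 2.45 to 2.84), where 37.5% of the 14607 genes at that level did. The ratio was 0.98 without the library highest in HLA-E in each group and 0.54 when every library had the same weight. In the imatinib run HLA-C, TAP2 and HLA-B passed 2-fold, of 7 genes with at least 1 CPM, where 16.1% of 14985 genes did. HLA-C was higher in Orange at 1.25 and TAP2 at 1.14, and both were within 2-fold at equal weights, at 0.37 and 0.76. HLA-B was lower in Orange at -1.44, but without the highest library of each group, which in Green was library 75, the ratio was 0.40. B2M and TAPBP differed between stains by 0.18 or less on this scale in both runs.

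Untreated libraries were also compared between runs. Against the Green libraries of the benzene run, the Hoechst run was 2-fold or more higher in HLA-E, at 1.43, and TAP1, at 2.61, of 5 genes with at least 1 CPM, where 47.5% of 15923 genes passed 2-fold in either direction. The TAP1 ratio was 2.11 without the highest libraries and 0.51 at equal weights, and HLA-E 1.43 and 1.58. Against the Green libraries of the imatinib run, TAP1 was higher at 2.80 and HLA-B, HLA-C and CD74 lower at -2.08, -1.12 and -1.01, of 8 genes with at least 1 CPM, where 39.2% of 16074 genes passed. Without the highest libraries these became 2.12, -0.06, -0.31 and -0.70, and at equal weights 0.59, -0.13, -0.15 and -0.27. HLA-E was higher in the Hoechst run at 0.85, within 2-fold, and at equal weights at 1.30.

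The Green libraries of the imatinib run were higher than those of the benzene run in HLA-B at 2.31, HLA-C at 1.34 and CD74 at 1.12, of 7 genes with at least 1 CPM, where 40.5% of 14964 genes passed 2-fold, and all 3 fell within 2-fold without the highest libraries. CD74 was at 0 reads in the Green benzene libraries. Against a floor of 3 reads there, its sum in the Green imatinib libraries was 16.5-fold higher, and 9.97-fold higher without library 92. These folds leave out the spread between libraries, and CD74 was detected in only 4 of 50 and 0 of 31 libraries of these groups. The comparisons between runs share groups and are not independent. B2M was lower in the Hoechst and the imatinib run than in the benzene run, at -0.62 and -0.50. In none of the 5 comparisons did the mean log2(CPM + 1) of any of the 9 genes differ by more than the larger SD of the groups compared. How many of all genes exceed that SD was not counted, so this does not set the 9 genes apart.

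**Figure D4:**
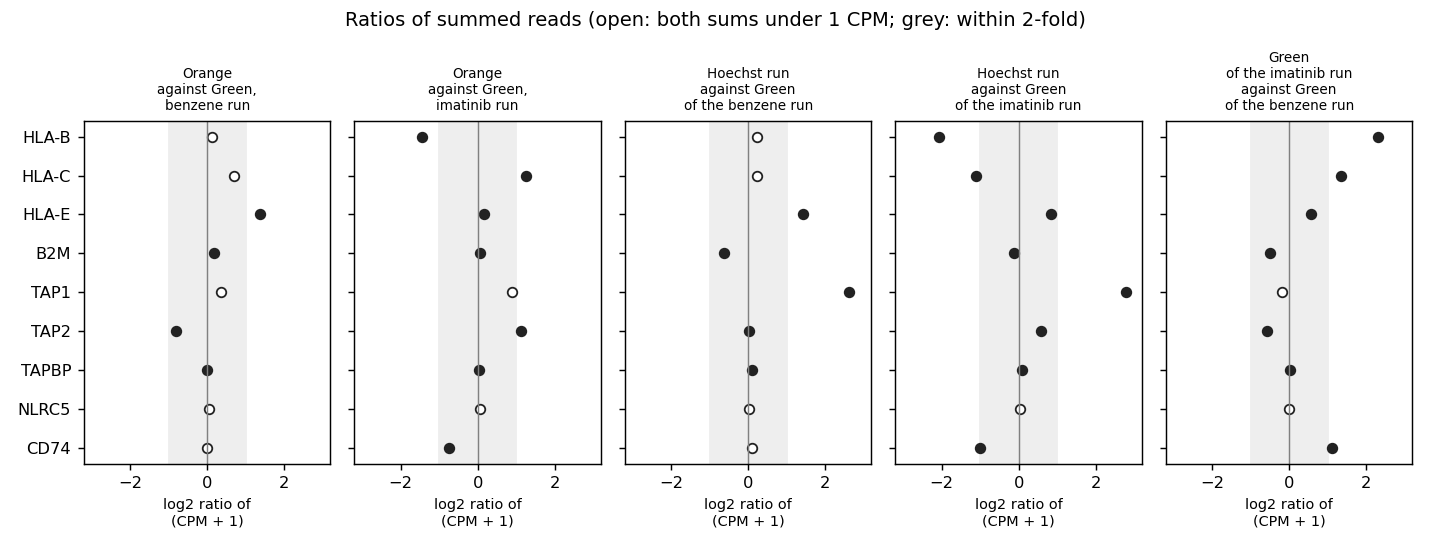
Each panel is 1 comparison and each point the log2 ratio of summed CPM + 1 for 1 gene, first-named group over second, with open points where both sums are under 1 CPM and grey for ratios within 2-fold. TAPBP and B2M stay inside the grey band in all 5 panels, while HLA-B, HLA-C, HLA-E, TAP1, TAP2 and CD74 leave it in at least 1.

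The rest of the pathway was followed in gene lists by function. Over all genes with a read in the run, 60.1%, 53.9% and 55.6% were detected in under 10% of the Hoechst, benzene and imatinib libraries, 31.9%, 39.5% and 33.01% in between and 7.96%, 6.58% and 11.4% in at least 90%. Of 12 genes of peptide supply and loading, 5, 5 and 6 were detected in at least 90% of libraries of the Hoechst, benzene and imatinib runs and 3 in under 10% in each run. The chaperones CALR and CANX, which fold the heavy chain, and HSPA5 were detected in 100% of libraries and the oxidoreductase PDIA3 of the loading complex in 98.5% to 100%. The proteasome activators PSME1 and PSME2 were detected in 86.6% to 100% of libraries. By contrast the immunoproteasome subunits PSMB8 and PSMB9, which neighbour TAP1 and TAP2 in the genome, were detected in 3.08% to 10.5%, and PSMB10 in 26.8%, 40% and 56.8%. The tapasin relative TAPBPL was detected in 1.05% to 8.54% and the trimming peptidases ERAP1 and ERAP2 in 21.5% to 47.4% and 9.47% to 14.6%. HSPA5 had the highest summed CPM of this list in each run, 770 to 1482, and the lowest was ERAP2 in the Hoechst and imatinib runs, at 0.836 and 1.15, and TAPBPL in the benzene run, at 1.10.

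Of further class I genes, HLA-F and HLA-G were in under 10% of libraries in every run, with HLA-G at 1 read in the Hoechst run. The MR1 gene, whose product presents vitamin metabolites, had the highest CPM among these genes and was detected in 39.02%, 29.2% and 26.3% of the Hoechst, benzene and imatinib libraries. All 6 class I pseudogenes were under 10%, with HLA-H and HLA-P at 0 reads in every run and HLA-K at up to 0.711 CPM. Of 12 class II genes 10, 11 and 11 were under 10%, as 60.1%, 53.9% and 55.6% of all genes were, with HLA-DRA, HLA-DRB1, HLA-DQB1 and HLA-DMB at 0 reads, and the protease CTSS had the highest CPM and was detected in 16.9% to 45.1%. The class II transactivator CIITA was detected in 2.44%, 0% and 3.16% of libraries.

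Genes that are known to control class I transcription were mostly seen in part of the libraries. Of 21 such genes, 18, 19 and 18 lay between 10% and 90% in the Hoechst, benzene and imatinib runs, beside 31.9%, 39.5% and 33.01% of all genes. The RFX subunits RFX5, RFXAP and RFXANK, which bring NLRC5 to the promoter, were detected in 45.1%, 18.3% and 62.2% of Hoechst libraries, and IRF1, which binds the interferon element, in 29.3%. STAT2 had the highest CPM of this list in the Hoechst run (197) and IRF9, its partner, the lowest (1.38). In the benzene run these were STAT2 (135) and IRF9 (1.88), and in the imatinib run RFXANK (147) and IFNAR2 (1.65). USF1 was the only gene of all lists called between stains by DESeq2 (log2 fold change 2.68 ± 0.68, adjusted p = 0.0179), and edgeR did not call it.

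The subunits of Polycomb repressive complex 2, a chromatin repressor that has been tied to class I silencing, were detected in 75.4% to 100% of libraries, with EZH2 in 100% of every run. EZH2 also had the highest CPM of the 5 subunits in the Hoechst, benzene and imatinib runs (358, 331 and 210), and the lowest were EED in the first (91.01) and SUZ12 in the others (44.2 and 33.1). Of 8 interferon-induced genes 6, 7 and 7 were under 10% (60.1%, 53.9% and 55.6% of all genes), with OAS1 and GBP1 at 0 reads, while ISG15 had the highest CPM and was detected in 51.2%, 38.5% and 60% of libraries.

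**Figure D5:**
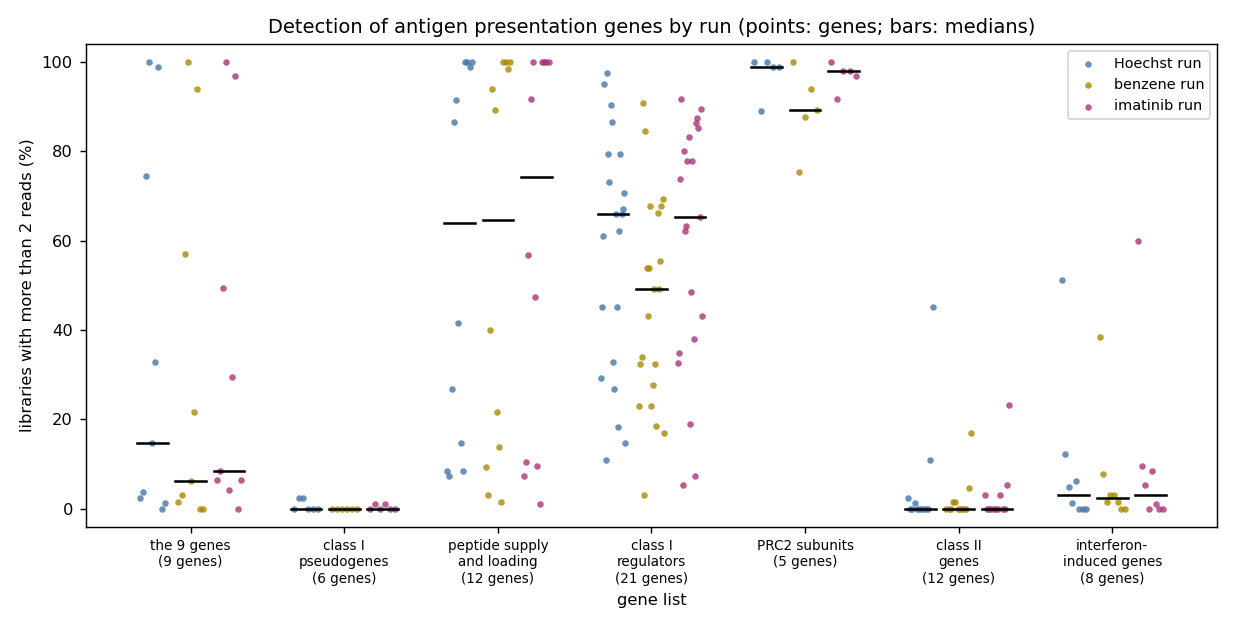
Each point is a gene, grouped by list and coloured by run, at the percentage of libraries with more than 2 reads, and the bars are list medians. The medians of the class II and interferon-induced lists lie at or below 3.16%, and those of the Polycomb subunits at or above 89.2%.

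For the 4 genes detected in at least 20% of libraries in every run, the genes with the most similar levels across the 242 kept libraries were found by the mean of the within-run Spearman correlations, among 9061 other genes. For B2M these were EEF1A1P11, RPL30 and RPL7P1 at mean rho 0.57, 0.57 and 0.55, where the 99th percentile over genes was 0.37, and 2 of the 3 are pseudogenes whose reads may come from the parent genes. HLA-E was most like C17orf80, SLC25A5 and NQO1 (0.33, 0.31 and 0.31, 99th percentile 0.25), TAP2 like TNFAIP1, GRWD1 and JMJD4 (0.30, 0.28 and 0.28, 99th percentile 0.21) and TAPBP like MAPK1IP1L, BROX and ENSG00000260257 (0.30, 0.26 and 0.25, 99th percentile 0.19). None of these lists held another of the 9 genes. Libraries share depth and quality, and B2M and HLA-E had lower levels in libraries with more spike-in reads, with rho from -0.56 to -0.25 for B2M and from -0.49 to -0.39 for HLA-E over the 3 runs.

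Of the kept libraries, 12 had over 10000 detected genes. There HLA-E was detected in 12 of 12, between 32.3 and 126 CPM, and TAP2 in 9 and TAP1 in 7 of 12, with highest values of 14.5 and 11.4 CPM. HLA-B was detected in 0, HLA-C in 2 and CD74 in 1 of 12, NLRC5 in 0, and TAPBP ran from 95.4 to 203 CPM. These libraries were set apart by the number of genes, not by a label. Of the 21 libraries left out for low complexity, 14 had B2M, 10 TAPBP, 5 HLA-E and 2 TAP2 detected, and the other 5 genes had 0 reads.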

How the data were processed

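Libraries of K562 cells were made on the Fluidigm C1 with SMARTer and Nextera XT chemistry. The authors trimmed the reads with skewer, mapped them with HISAT2 to GRCh37 with the ERCC spike-in sequences, and deposited whole-number counts of uniquely mapped reads per Ensembl 75 gene from featureCounts. The submitters' processing notes name Picard 1.92 and Subread 1.5.0. Whether marked duplicates were counted is not given in the sources used here. The authors' deposited CPM table holds the same counts scaled per library, spike-ins included, and served only for the alternative detection limit of 1 CPM. Columns were matched to samples by title, and 4 columns that no title matched were not used.

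CPM here are per 1000000 reads on genes, spike-ins left out. The GENCODE v44lift37 annotation of GRCh37 gave symbols for 55665 of the 63677 identifiers, with positions and exon lengths; it is newer than the Ensembl release behind the counts. Detection means more than 2 reads. Orange and Green were compared with edgeR 4.0.16 (quasi-likelihood test, TMM scaling, filterByExpr, run as a term, Benjamini-Hochberg adjustment) on counts summed per run and stain, with DESeq2 1.42.0 as an alternative, in R 4.3.3. Everything else ran in Python 3.11.15 (scipy 1.17.1, pandas 2.3.3, numpy 2.4.6, and matplotlib 3.10.9 for the figures). Ratios of sums used a pseudocount of 1 CPM, were counted past 2-fold among genes with at least 1 CPM in either sum, and have exact intervals conditional on the total reads. No libraries had identical counts. The edgeR step and the search for similar genes were tested on simulated data.

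The genes, the lists and the tests were chosen with earlier results of these data known. Named were the 9 genes, the genes of highest and lowest CPM of each list, the 3 genes most similar to each gene detected in at least 20% of libraries of every run, and list genes past an adjusted p of 0.05. Not every gene of the lists is reported here. Other genes were named for their role after their values were seen. Alternatives were another pseudocount, equal weights, other scaling, all libraries, other detection limits, thinning to 500000 reads (which 80 of the 82 Hoechst libraries reached) and leaving out libraries or a run. Those that left out the top library of each sum or library 75 of the imatinib run were chosen after seeing the data.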

Additional observations from a re-analysis of the deposited data

How the results depend on the processing

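Of 529 values under alternative settings for 90 results, 386 were labelled the same as the value reported, 135 moved and 8 changed sign. The label had a different meaning by kind of result. For a log2 ratio of sums, same meant inside the counting interval. For a count of genes past 2-fold it meant near the reported count. For a stain fold change it meant the same sign with no call, whatever the size. The number of the 9 genes past 2-fold rested on few libraries and on the pseudocount. Between Orange and Green it was 1 in the benzene run but 0 at equal weights, with all libraries and without the top library of each sum, and 3 in the imatinib run but 0 at equal weights and with a pseudocount of 10 CPM. For the Hoechst run against Green of the benzene run it was 2, and 1 with a pseudocount of 10 CPM, at equal weights and with all libraries. For the Hoechst run against Green of the imatinib run it was 4, and 0 with a pseudocount of 10 CPM, 1 at equal weights (HLA-E, not among the 4) and 1 without the top libraries (TAP1). For Green of the imatinib against Green of the benzene run it was 3, and 0 under each of these settings. The HLA-B ratio in the imatinib run changed sign, to 0.084 at equal weights and 0.40 without the top libraries.

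DESeq2 called 119 genes between stains where edgeR called 0 under each setting run. With 1 run alone the stain ratio of HLA-B was between -1.44 and 0.12 and that of TAP2 between -0.80 and 1.14. The TAPBP stain fold change, 0.01 on the log2 scale, became -0.0037 with DESeq2, -0.0038 both with its size factors in edgeR and without library 75 of the imatinib run, and -0.0056 with no filter on low counts. The number of genes detected in at least 90% of benzene libraries was 2, and 1 at 10 reads or after thinning. The number under 10% in the imatinib run was 5, and 3 at 1 read. No paired analysis was possible because the shared library numbers mark positions in each run, not pairs of samples. NLRC5 and, outside a few libraries, HLA-B, HLA-C, TAP1 and CD74 lay at or near 0 reads per library, which does not show that their transcripts are absent. The part of depth in these low counts was not tested.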
